A study of Mus musculus with 5 samples.

Results

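Gene expression in 2 mouse hepatic progenitor cell (HPC) lines was compared with that in 1 neural progenitor cell (NPC) line on one-colour Agilent whole-genome microarrays. These are 3 of the 5 arrays of the series. The HPC line HB1 (HPC replicate 1) was derived from E13.5 fetal liver of C57BL6J mice, and the HPC line HNG2 (HPC replicate 2) from E13.5 fetal liver of STOCK Tg(Nanog-GFP, Puro)1 Yam, a strain that carries a Nanog reporter transgene with puromycin resistance. The NPC line NSBAg2 was made from the embryonic stem cell line BAg73C2, whose Afp locus carries a beta-geo knock-in allele, and its strain is not labelled. The other 2 arrays hold induced hepatic progenitor cells (iHPC) made from NSBAg2 with retroviral vectors for 9 or 10 transcription factors. These cells were kept in G418 before harvest. Both iHPC arrays entered the fit for its estimate of spread, the filter on dim probes and the choice of each gene's probe. HB1, HNG2 and NSBAg2 were each measured on 1 array, from 0.25 µg RNA. A difference between HPC and NPC is therefore also a difference between fetal liver and stem cell derivation, and between strains, which cannot be told apart here.

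Hepatic progenitors, or hepatoblasts, are the epithelial cells of the fetal liver bud, and they give rise both to hepatocytes and to the cholangiocytes that line bile ducts. They are known for the keratins Krt8 and Krt18, E-cadherin, alpha-fetoprotein and albumin, and for a network of hepatocyte nuclear factors that bind each other's promoters. Neural progenitors grown from embryonic stem cells are known for Sox2, Pax6, nestin and other genes of the neural tube, whose regional identity is marked by homeobox genes.

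A level is the log2 signal of a gene minus its array's 75th percentile, so that 0 marks that percentile, and differences are HPC minus NPC in log2 units. Values are given for HB1, HNG2 and NPC in turn. A gene was called higher or lower in HPC when limma's adjusted p was under 0.05 and both lines lay on that side of NPC. Of 19303 genes tested, 1290 (6.68%) were called higher and 1734 (8.98%) lower, which is 15.7% in either direction. These shares are the background for the counts of every gene list below. Every called gene differed from NPC by at least 2-fold in both lines, and the smallest called difference was 1.22. Without the test, 2709 genes (14.0%) were at least 2-fold higher than NPC in both HB1 and HNG2, and 3373 (17.5%) were at least 2-fold lower in both. The lines lay on opposite sides of NPC by at least 2-fold each at 177 genes (0.917%). With array medians set equal in place of 75th percentiles, the median of all genes moved from -0.03 to 0.26 and the higher calls from 42.7% to 54.1% of all calls.

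The calls lean on the iHPC pair, whose arrays differed less (median SD of a gene 0.105) than HB1 and HNG2 did (0.374). Without iHPC replicate 1, without iHPC replicate 2, or with the 3 arrays compared alone, limma called 0 genes, and 3889 had an unadjusted p under 0.05. Fits without HB1 or without HNG2 took their spread from the iHPC pair alone, with 1 residual degree of freedom. They hold no spread between hepatic lines, so their calls cannot show whether those made here are robust to it. The p-values measure the spread between 2 cell lines of different strains and between the 2 iHPC arrays, and NPC was assumed to vary likewise. HB1, HNG2 and NPC were each scanned on a different day, and iHPC on the same day as NPC. Scan day therefore cannot be told apart from cell type or from hepatic line. NPC also shared its slide with iHPC replicate 2. Between 62.0% and 65.6% of spots were well above background on the 3 arrays, and the number of arrays limits the precision.

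**Figure D1:**
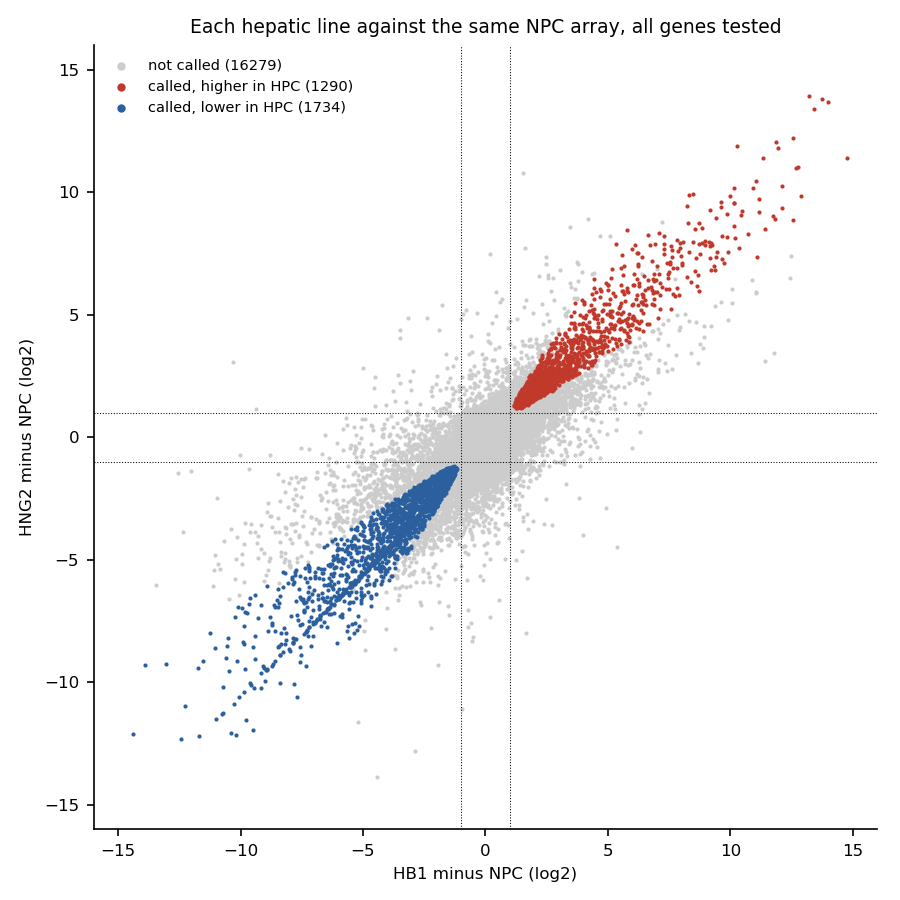
Difference of HB1 from NPC (x axis, log2) against that of HNG2 from NPC (y axis, log2) for the 19303 genes tested, with dotted lines at 2-fold. Both axes subtract the same NPC array, so the points' spread along the diagonal is partly shared by construction; the 1290 genes called higher and 1734 called lower in HPC all lie beyond 2-fold in both lines.

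The defining markers matched the hepatic label in part, and the neural label in part. Krt8, Krt18, Krt19, Cdh1, Epcam, Hnf4a, Alb and Afp were higher in both HPC lines. The markers Ttr, Foxa2 and Dlk1 had no call. Ttr, the thyroxine carrier, was at 1.94 in HB1, -2.04 in HNG2 and -7.41 in NPC (limma adjusted p = 0.079). Foxa2, a pioneer factor of gut endoderm, was at 4.91 in HB1, 4.56 in HNG2 and 2.98 in NPC (limma adjusted p = 0.052). Dlk1, a surface protein used to sort hepatoblasts, was at -3.65 in HB1, -0.81 in HNG2 and -1.85 in NPC, so NPC lay between the lines. Of the neural markers, Sox2, Pax6 and the glial glutamate transporter Slc1a3 were lower in both HPC lines, whereas nestin (Nes), Fabp7, Sox1, Msi1 and Prom1 had no call. Hes5, a Notch target of neural stem cells, was at -3.49 in HB1, -5.96 in HNG2 and -7.67 in NPC with no call. It was well above background in both hepatic lines and not in NPC. On the NPC array, Nes (1.18), Sox2 (0.86) and Slc1a3 (0.41) lay above the 75th percentile. Pax6 (-0.99), Msi1 (-1.11), Prom1 (-1.85), Fabp7 (-4.31) and Sox1 (-4.34) lay below it there. Of 8 mesenchymal markers, all well above background on the NPC array, Col1a2, Col3a1 and Twist1 were called lower in HPC. Col1a1, Prrx1, Twist2, Thy1 and Pdgfrb had no call. On the NPC array the 8 ranged from -0.02 for Thy1 to 6.53 for Col1a2, and all but Thy1 exceeded every neural marker. Markers of blood (Alas2, Ptprc) and endothelium (Pecam1, Cdh5) were not well above background on any of the 3 arrays. The blood marker Hba-a1 was so on all 3, and the endothelial markers Kdr in HB1 and Tek in HB1 and NPC. Blood cell genes well above background numbered 12 of 25 on each HPC array and 10 on NPC, and endothelial genes 11, 9 and 10 of 22. Summed signals of blood genes were 3.71 in HB1, 8.54 in HNG2 and 6.21 in NPC, and of endothelial genes 19.5, 17.3 and 10.3, as multiples of the 75th percentile. The part of such cells in the results was not tested, and fewer cells of a type and less RNA per cell cannot be told apart.

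**Figure D2:**
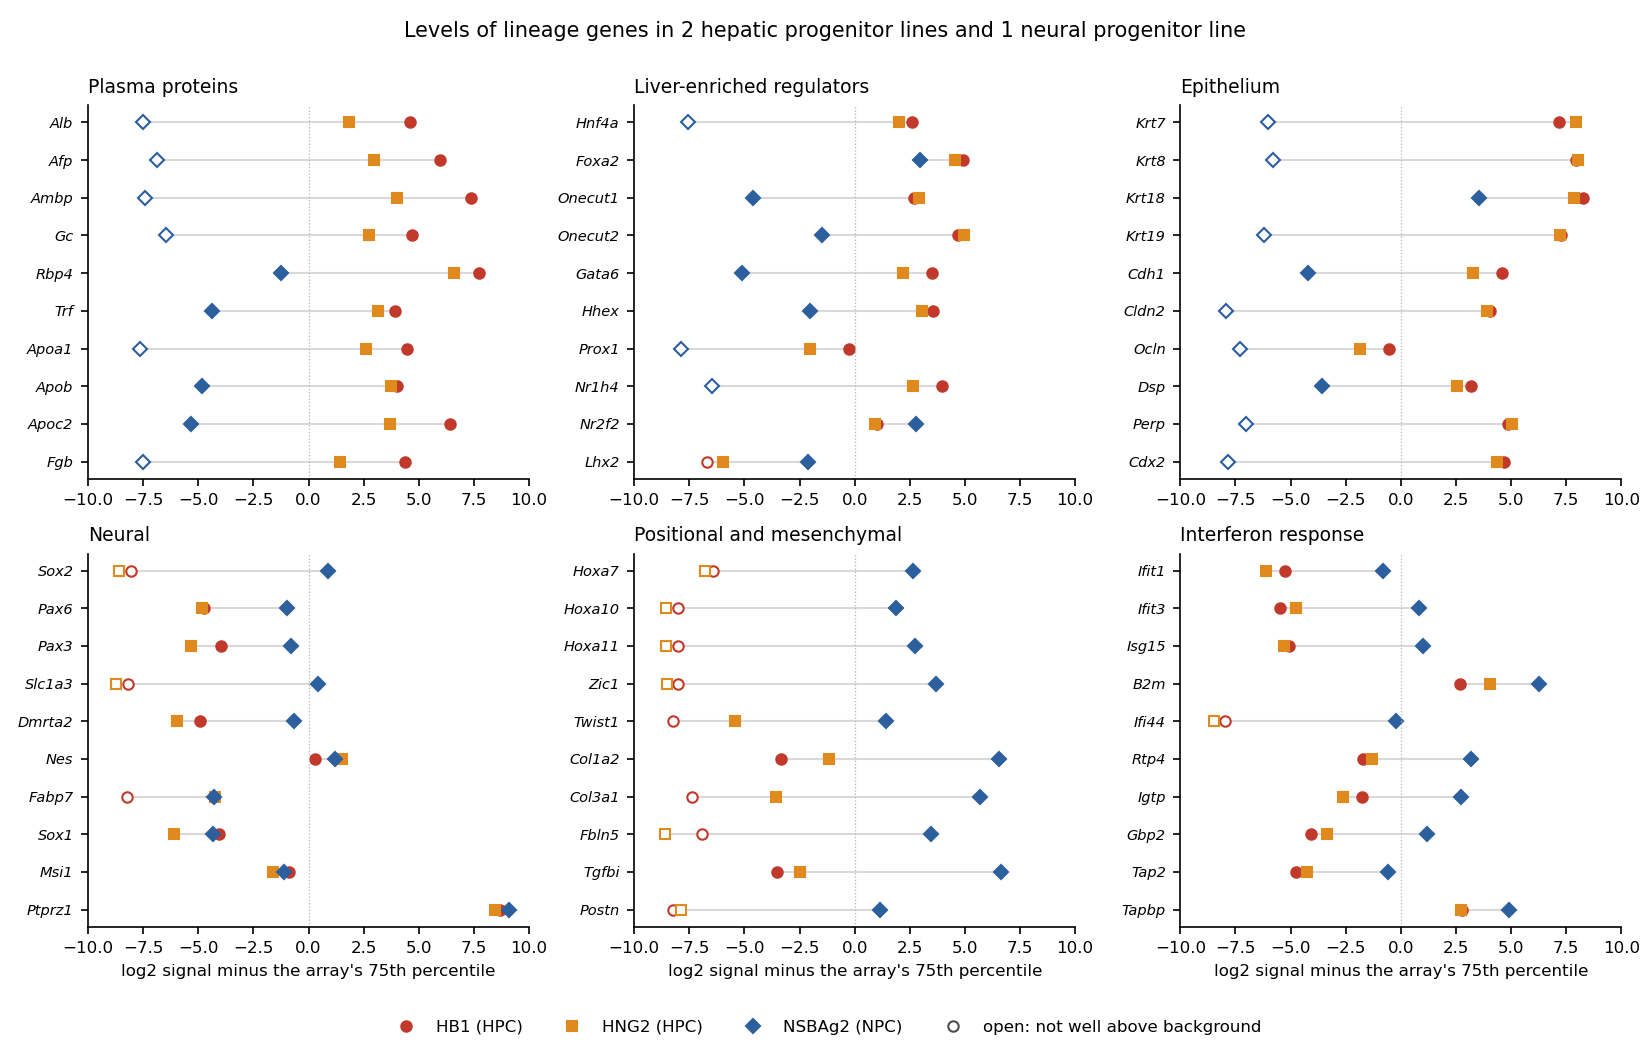
Level of 60 genes in HB1 (circles), HNG2 (squares) and NSBAg2 (diamonds) on a log2 axis relative to each array's 75th percentile, 10 genes per role; open symbols were not well above background. Plasma protein, regulator and epithelial genes shown lie right of NPC in both hepatic lines except Nr2f2 and Lhx2. The Hox genes, Zic1 and the mesenchymal and interferon genes shown lie left of it. Nes, Sox1, Msi1 and Ptprz1 lie within 2 log2 units of NPC in both lines.

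Genes of secreted plasma proteins were higher in the fetal liver lines. Of 23 plasma carrier genes tested, 10 were higher in HPC and 1 was lower, and the median difference was 5.29 in HB1 and 4.0 in HNG2, against 0.04 and -0.07 over all genes tested. The remaining 2 of the 25 genes listed did not pass the filter on dim probes, as holds for a few genes of most lists below. Albumin (Alb), the main protein of plasma, was at 4.61 in HB1, 1.84 in HNG2 and -7.51 in NPC, and was not well above background in NPC. Alpha-fetoprotein (Afp), its fetal relative, was at 5.98 in HB1, 2.98 in HNG2 and -6.89 in NPC, again dim in NPC. Where a group was dim, a fold is a lower bound. It sets the bright group's mean against a floor, which on each dim array is the gene's own signal or, if higher, the least signal that any probe had well above background. A gene dim in 1 cell type could pass the filter through the other, where it was high, or through the iHPC pair. To pass through NPC a gene needed its 1 array, and to pass through HPC it needed both lines. Genes high in NPC alone could thus enter more easily. The counts and medians of lists therefore describe the members tested. Against this floor Alb was at least 451-fold higher in HPC (limma adjusted p = 0.025) and Afp at least 1075-fold (limma adjusted p = 0.025). These bounds use the mean of both lines, and for HNG2 alone, the nearer line, the bound was 7.43 on the log2 scale for Alb and 8.57 for Afp. Both lines were far above NPC, and HB1 was the higher of them at each gene.

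Ambp, which encodes alpha-1-microglobulin and bikunin, was at 7.36 in HB1, 3.99 in HNG2 and -7.41 in NPC and at least 2469-fold higher in HPC. Gc, the vitamin D carrier, was at 4.71 in HB1, 2.76 in HNG2 and -6.44 in NPC and at least 644-fold higher. Of the carriers measured in NPC too, Rbp4, the retinol carrier, was at 7.72 in HB1, 6.60 in HNG2 and -1.27 in NPC, a difference of 8.43 ± 0.57 (SE). Transferrin (Trf), the iron carrier, was at 3.92 in HB1, 3.16 in HNG2 and -4.39 in NPC, a difference of 7.93 ± 0.45 (SE). The 3 arrays fell into the same order at each of these genes, with NPC lowest and HB1 highest. Haptoglobin (Hp), vitronectin (Vtn), fetuin-A (Ahsg) and the inter-alpha-inhibitor chain Itih2 made up the rest of the 10. Fetub was the 1 carrier lower in HPC, at -3.58 in HB1, -3.57 in HNG2 and -0.71 in NPC. The acute phase genes Orm1 and Orm2 were not well above background on any of the 3 arrays, and ceruloplasmin (Cp) was at 2.04 in HB1, 1.74 in HNG2 and 3.03 in NPC.

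The promoters of Afp, Apob and Fga, 3 genes called higher in HPC, are shown because each holds CAAAGNNCA, letters bound by hepatocyte nuclear factor 4, on one strand or the other (RefSeq, GRCm38.p6, 250 bases before to 50 after the start of the gene, 5′ to 3′, motif in capitals). They lie at chr5:90490464-90490763 (plus strand), chr12:7977427-7977726 (plus strand) and chr3:83025903-83026202 (plus strand).
Afp: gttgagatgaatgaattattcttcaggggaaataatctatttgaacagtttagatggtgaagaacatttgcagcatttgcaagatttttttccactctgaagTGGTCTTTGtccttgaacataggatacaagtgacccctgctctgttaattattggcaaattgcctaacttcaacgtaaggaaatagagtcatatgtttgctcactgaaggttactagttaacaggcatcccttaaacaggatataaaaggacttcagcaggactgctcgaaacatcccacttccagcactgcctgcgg
Apob: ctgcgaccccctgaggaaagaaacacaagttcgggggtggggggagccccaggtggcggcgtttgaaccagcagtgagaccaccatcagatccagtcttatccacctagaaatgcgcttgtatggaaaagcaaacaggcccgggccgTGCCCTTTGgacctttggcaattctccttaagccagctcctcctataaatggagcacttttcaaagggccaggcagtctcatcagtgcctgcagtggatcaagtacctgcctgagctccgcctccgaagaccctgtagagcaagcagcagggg
Fga: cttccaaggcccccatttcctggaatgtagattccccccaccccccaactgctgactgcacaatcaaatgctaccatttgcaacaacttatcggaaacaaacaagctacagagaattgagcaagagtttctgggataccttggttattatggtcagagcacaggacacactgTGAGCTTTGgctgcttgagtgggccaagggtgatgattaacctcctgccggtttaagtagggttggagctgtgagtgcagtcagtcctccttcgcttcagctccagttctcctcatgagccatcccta
The letters occurred in 4 of 24 promoters of plasma carrier genes (16.7%), 4 of 19 of lipoprotein genes (21.1%) and 5 of 19 of coagulation genes (26.3%), against 6.36% of all 32851 promoters of the table. Promoters matched 759 of the genes called higher and 1014 of those called lower by symbol, some with several starts. The letters occurred in 71 of 956 promoters of genes called higher in HPC (7.43%) and in 73 of 1321 of genes called lower (5.53%). The forkhead letters TGTTTAC occurred in 2.82% of promoters of the higher genes, 2.65% of those of the lower and 3.65% of all. In the lists, TGTTTAC occurred in 2 of 24 promoters of plasma carrier genes (8.33%), 3 of 19 of lipoprotein genes (15.8%) and 2 of 19 of coagulation genes (10.5%).

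Of 18 apolipoprotein and lipoprotein genes tested, 4 were higher in HPC and 0 lower. Apolipoprotein B (Apob), the backbone of very low density lipoprotein, was at 4.03 in HB1, 3.74 in HNG2 and -4.81 in NPC, a difference of 8.70 ± 0.35 (SE) (limma adjusted p = 0.0098). Apoc2, the activator of lipoprotein lipase, was at 6.42 in HB1, 3.71 in HNG2 and -5.33 in NPC, a difference of 10.40 ± 1.25 (SE). Apoa1, the main protein of high density lipoprotein, was at 4.46 in HB1, 2.62 in HNG2 and -7.63 in NPC and at least 563-fold higher in HPC. The lipoprotein lipase inhibitor Angptl4 was at 4.63 in HB1, 4.38 in HNG2 and 0.66 in NPC, a difference of 3.84 ± 0.29 (SE). Both hepatic lines lay above NPC at these 4 genes. Apoe, which many tissues make, was at 3.40 in HB1, 1.68 in HNG2 and 5.43 in NPC, highest in NPC, with no call.

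Of 19 coagulation and fibrinolysis genes tested, 5 were higher in HPC and 1 lower. The fibrinogen chain Fgb was at 4.35 in HB1, 1.41 in HNG2 and -7.49 in NPC, and at least 356-fold higher. Fga was at -2.66 in HB1, -3.81 in HNG2 and -7.29 in NPC, at least 5.13-fold higher, and Fgg at -3.80 in HB1, -4.63 in HNG2 and -7.69 in NPC with no call. Protein C (Proc), an anticoagulant protease, was at 2.93 in HB1, 1.25 in HNG2 and -5.31 in NPC, a difference of 7.40 ± 0.80 (SE). Prothrombin (F2) and antiplasmin (Serpinf2) were at least 13.9-fold and 59.3-fold higher. Plasminogen (Plg) went the other way, at -8.23 in HB1, -8.56 in HNG2 and -3.39 in NPC, and was dim in both hepatic lines. The median difference of the coagulation list was 2.18, and it turned to -0.25 when only probes well above background on all 5 arrays were kept, a filter that leaves out genes dim in NPC.

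Complement and serpin genes were called in both directions. Of 16 complement genes tested, 4 were higher in HPC (C2, C3, Cfb, Cfi), which is 25%. Another 3 (C1ra, C1s1, Serping1) were lower, which is 18.75%, against 6.68% higher and 8.98% lower over all genes. C3, the central component, was at 2.61 in HB1, 3.39 in HNG2 and -3.62 in NPC, a difference of 6.62 ± 0.44 (SE). Factor B (Cfb), the protease of the alternative pathway, was at 3.49 in HB1, 2.72 in HNG2 and -7.45 in NPC, at least 416-fold higher in HPC. The proteases of the C1 complex went down, with C1ra at -5.46 in HB1, -4.83 in HNG2 and 0.92 in NPC, a difference of -6.07 ± 0.37 (SE). Their inhibitor Serping1 was at -8.25 in HB1, -8.83 in HNG2 and 0.66 in NPC, at least 125-fold lower in HPC. Of 14 serpin genes of clades A and B, 2 were higher and 2 lower, which is 14.3% each. The alpha-1-antitrypsin gene Serpina1d was at 7.01 in HB1, 3.33 in HNG2 and -5.55 in NPC, but near-identical copies of this gene may share its probe's signal, which was not tested. Serpinb8 was at -5.35 in HB1, -5.10 in HNG2 and 0.09 in NPC, a difference of -5.32 ± 0.25 (SE).

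Among liver-enriched transcription factors, 9 of 29 tested were higher in HPC and 2 lower, with medians of 1.93 in HB1 and 0.73 in HNG2. Hnf4a, a nuclear receptor at the centre of hepatocyte identity, was at 2.60 in HB1, 2.02 in HNG2 and -7.56 in NPC (limma adjusted p = 0.0096), and its probe was dim in NPC. Another of its probes was well above background there, so no bound is given. The bile acid receptor Nr1h4 (FXR) was at 3.98 in HB1, 2.63 in HNG2 and -6.47 in NPC, at least 477-fold higher. HB1 and HNG2 were nearer to each other at these regulators than at Alb or Afp.

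Onecut1 (HNF6), needed for bile duct formation, was at 2.71 in HB1, 2.90 in HNG2 and -4.59 in NPC, a difference of 7.40 ± 0.27 (SE). Its relative Onecut2 was at 4.69 in HB1, 4.97 in HNG2 and -1.49 in NPC, a difference of 6.33 ± 0.34 (SE). Gata6 and Hhex, which act when the liver bud forms, differed by 7.96 ± 0.64 (SE) and 5.29 ± 0.37 (SE). Prox1, needed for hepatoblasts to migrate, was at -0.25 in HB1, -2.05 in HNG2 and -7.90 in NPC, and the xenobiotic receptor Nr1i2 (PXR) at -1.27 in HB1, -2.08 in HNG2 and -7.49 in NPC. Both hepatic lines exceeded NPC at all 6 genes on the probe used. Of 2 probes of Onecut1 well above background on any of the 3 arrays, 1 had both lines above NPC. Nr2f2 (COUP-TFII), a factor of mesenchyme and veins, was lower in HPC at 1.01 in HB1, 0.93 in HNG2 and 2.80 in NPC, and so was Lhx2, a factor of forebrain and of hepatic stellate cells, at -6.71 in HB1, -5.97 in HNG2 and -2.11 in NPC. Cebpa, a driver of hepatocyte maturation, was at 1.32 in HB1, 1.64 in HNG2 and 1.46 in NPC, and Cebpd at 2.10 in HB1, 2.00 in HNG2 and 2.24 in NPC, both with no call.

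Genes of hepatoblast and biliary lineage counted 8 higher and 2 lower of 27 tested. Cd24a, a surface glycoprotein of biliary progenitors, was at 4.85 in HB1, 4.91 in HNG2 and 0.25 in NPC, a difference of 4.63 ± 0.23 (SE). Epcam, a homophilic adhesion molecule used to sort hepatic stem cells, was at -0.03 in HB1, -0.70 in HNG2 and -2.90 in NPC, a difference of 2.54 ± 0.38 (SE). Igfbp1, a fetal liver insulin-like growth factor binding protein, was at least 5.85-fold higher. The remaining 5 were keratins and Cdh1. Osteopontin (Spp1), abundant in bile ducts and also in bone and injured tissue, was lower in HPC at 4.83 in HB1, 4.86 in HNG2 and 8.47 in NPC. The chloride channel Cftr of bile duct cells was also lower, at -5.21 in HB1, -4.93 in HNG2 and -1.66 in NPC. Sox9, a factor of biliary cells that neural progenitors also express, was at -0.02 in HB1, 1.09 in HNG2 and 1.85 in NPC with no call.

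Of 32 metabolic enzymes of the mature hepatocyte tested, 4 (12.5%) were higher in HPC and 0 lower, against 6.68% and 8.98% over all genes, and 11 of the 43 listed did not pass the filter. The cytochrome Cyp3a13 was at 3.64 in HB1, 0.75 in HNG2 and -7.77 in NPC, at least 221-fold higher in HPC. Liver pyruvate kinase (Pklr) and liver glycogen phosphorylase (Pygl) were at least 8.01-fold and 4.7-fold higher. Among those that did not pass were Otc and Arg1 of the urea cycle, Hpd of tyrosine breakdown, and Cyp7a1, the first enzyme of bile acid synthesis. The urea cycle entry enzyme Cps1 was at -5.40 in HB1, -6.32 in HNG2 and -7.54 in NPC. The argininosuccinate synthetase gene Ass1 was at -1.30 in HB1, 0.25 in HNG2 and 3.28 in NPC, highest in NPC, with no call.

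Of 13 hepatocyte transporters tested, 3 were higher in HPC and 1 lower. Abcc3, an exporter of bile salt conjugates, was at 3.63 in HB1, 2.62 in HNG2 and -3.31 in NPC, a difference of 6.43 ± 0.52 (SE). The phospholipid exporter Abcb4 was at 1.58 in HB1, 2.52 in HNG2 and -1.10 in NPC, and the drug exporter Abcb1a at -1.86 in HB1, -1.55 in HNG2 and -7.66 in NPC. The amino acid transporter Slc38a4, an imprinted gene, was lower in HPC at -8.20 in HB1, -8.74 in HNG2 and 1.88 in NPC. The probe used was dim in both hepatic lines. The other probe of Slc38a4 was well above background in a hepatic line, so no bound is given. Of 19 lipid-binding and lipid synthesis genes, 1 was higher (5.26%) and 2 lower (10.5%), against 6.68% and 8.98% over all genes. Fabp2 of intestinal cells was higher, at 0.71 in HB1, 0.07 in HNG2 and -4.74 in NPC. The muscle form Fabp3 and the adipose form Fabp4 were lower, at -4.50 in HB1, -4.70 in HNG2 and 2.64 in NPC and -5.39 in HB1, -4.62 in HNG2 and -1.19 in NPC. Fatty acid synthase (Fasn) was at 6.88 in HB1, 6.83 in HNG2 and 7.11 in NPC with no call.

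Epithelial structure genes that were called were higher in HPC. Of 14 keratin genes tested, 8 were higher in HPC and 0 lower. Of 28 tight junction and desmosome genes, 18 were higher and 0 lower, and of 25 epithelial adhesion and splicing genes, 12 and 0. Medians in HB1 and HNG2 were 3.57 and 3.52 for keratins, 2.84 and 2.80 for junction genes, and 3.1 and 2.87 for adhesion genes. With dim values raised to the lowest signal well above background, the keratin medians were 2.36 and 1.93.

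Keratin 8 (Krt8), one partner of the filament pair of simple epithelia, was at 7.94 in HB1, 8.03 in HNG2 and -5.78 in NPC, at least 12232-fold higher in HPC (limma adjusted p = 0.0096). Its partner Krt18 was at 8.26 in HB1, 7.85 in HNG2 and 3.55 in NPC, a difference of 4.50 ± 0.31 (SE). Keratin 19 (Krt19), which marks bile duct cells and hepatic progenitors, was at 7.25 in HB1, 7.24 in HNG2 and -6.18 in NPC, at least 7308-fold higher. Krt18 was thus measured on all 3 arrays, while Krt8 and Krt19 were dim in NPC. Keratin 7 (Krt7), another duct keratin, was at 7.19 in HB1, 7.93 in HNG2 and -6.01 in NPC, at least 9114-fold higher. Keratin 20 (Krt20), of gut and urinary epithelium, was at 6.50 in HB1, 6.21 in HNG2 and -7.50 in NPC, at least 3950.1-fold higher. HB1 and HNG2 lay within 1 log2 unit of each other at all 5. Of keratins of layered epithelia, Krt13 was higher at 2.33 in HB1, 1.69 in HNG2 and -4.12 in NPC, and Krt5 and Krt14 had no call. Of 2 probes of Krt13 well above background on any of the 3 arrays, 1 had both lines above NPC. Vimentin (Vim), the filament of mesenchymal and progenitor cells, was at 6.72 in HB1, 6.47 in HNG2 and 6.48 in NPC with no call. The muscle filament genes desmin (Des) and syncoilin (Sync) were lower in HPC, and the probe used for each was dim in both hepatic lines. Des was at -7.44 in HB1, -8.31 in HNG2 and -3.90 in NPC and at least 5.31-fold lower. Sync was at -6.48 in HB1, -8.31 in HNG2 and -1.83 in NPC. The other probe of Sync was well above background in a hepatic line, so no bound is given.

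At junctions, claudin 2 (Cldn2), a pore-forming claudin of leaky epithelia, was at 4.02 in HB1, 3.92 in HNG2 and -7.91 in NPC, at least 758-fold higher in HPC. Occludin (Ocln) was at -0.51 in HB1, -1.87 in HNG2 and -7.30 in NPC, at least 21.1-fold higher. Desmoplakin (Dsp), which ties keratin filaments to desmosomes, was at 3.18 in HB1, 2.57 in HNG2 and -3.57 in NPC, a difference of 6.45 ± 0.38 (SE). Both hepatic lines lay above NPC at all 3 on the probe used. Of 2 probes of Ocln well above background on any of the 3 arrays, 1 had both lines above NPC. Perp, a desmosomal membrane protein and p53 target, was at 4.87 in HB1, 5.04 in HNG2 and -7.00 in NPC, at least 1500.2-fold higher. The polarity gene Crb3 was at -0.06 in HB1, -1.12 in HNG2 and -7.26 in NPC, and periplakin (Ppl), which links the envelope to filaments, at 3.14 in HB1, 2.63 in HNG2 and -3.01 in NPC. The scaffold gene Tjp1 (ZO-1), which many cells express, was at 1.26 in HB1, 0.91 in HNG2 and -0.70 in NPC, a difference of 1.78 ± 0.29 (SE). Cldn6, a claudin of embryonic epithelia, was high in HNG2 alone, at -6.14 in HB1, 3.11 in HNG2 and -7.69 in NPC. E-cadherin (Cdh1) was at 4.57 in HB1, 3.28 in HNG2 and -4.19 in NPC, a difference of 8.11 ± 0.65 (SE). Intestinal cadherin Cdh17 was at 1.77 in HB1, 1.89 in HNG2 and -7.39 in NPC, at least 172-fold higher. The lipolysis-stimulated receptor Lsr, a part of tricellular junctions, was at 6.55 in HB1, 6.14 in HNG2 and -0.31 in NPC, and the splicing factor Esrp2, which sets epithelial isoforms, at 1.07 in HB1, 0.36 in HNG2 and -3.26 in NPC. N-cadherin (Cdh2) was at -0.23 in HB1, -0.50 in HNG2 and -1.66 in NPC with no call.

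Promoters of Krt8, Cldn4 and Dsp are shown because they hold CAGGTG, the E-box letters bound by Snail and Zeb repressors, on one strand or the other (motif in capitals). They lie at chr15:102004293-102004592 (minus strand), chr5:134946885-134947184 (minus strand) and chr13:38151044-38151343 (plus strand).
Krt8: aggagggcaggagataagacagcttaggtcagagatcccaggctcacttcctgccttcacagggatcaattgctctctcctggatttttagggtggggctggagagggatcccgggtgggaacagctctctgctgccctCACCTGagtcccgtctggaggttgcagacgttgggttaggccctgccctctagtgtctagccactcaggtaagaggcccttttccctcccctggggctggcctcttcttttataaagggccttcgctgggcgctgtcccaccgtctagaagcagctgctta
Cldn4: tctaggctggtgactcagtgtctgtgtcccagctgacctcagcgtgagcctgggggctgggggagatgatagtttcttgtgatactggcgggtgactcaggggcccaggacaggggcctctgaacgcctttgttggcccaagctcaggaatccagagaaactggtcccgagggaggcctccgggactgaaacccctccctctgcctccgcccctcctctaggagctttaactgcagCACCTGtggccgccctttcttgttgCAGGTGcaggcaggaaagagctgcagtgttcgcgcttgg
Dsp: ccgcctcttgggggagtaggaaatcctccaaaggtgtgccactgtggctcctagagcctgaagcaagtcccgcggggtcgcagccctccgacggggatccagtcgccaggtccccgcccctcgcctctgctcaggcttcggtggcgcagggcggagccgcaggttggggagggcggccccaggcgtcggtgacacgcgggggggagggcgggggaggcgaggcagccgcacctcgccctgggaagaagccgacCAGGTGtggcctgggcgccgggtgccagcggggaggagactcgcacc
The letters occurred in 15 of 24 promoters of junction genes (62.5%), 10 of 16 of adhesion genes (62.5%) and 6 of 11 of keratins (54.5%), against 20.2% of all promoters, 23.6% of those of genes called higher and 18.1% of those of genes called lower. They occurred in 4 of 31 collagen promoters (12.9%) and in 0 of 24 Hox promoters. Cldn4 itself, a sealing claudin, was at -2.70 in HB1, -1.34 in HNG2 and -7.83 in NPC, at least 11.9-fold higher in HPC. Zeb2, a repressor of epithelial genes, was lower in HPC at -2.31 in HB1, -1.88 in HNG2 and 0.49 in NPC, a difference of -2.58 ± 0.31 (SE). Zeb1 was at -0.01 in HB1, 0.77 in HNG2 and 1.54 in NPC and Snai2 at -0.35 in HB1, 1.23 in HNG2 and 4.40 in NPC, both with no call.

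Genes of gut and gallbladder epithelium were also high in the fetal liver lines. Of 22 tested, 11 were higher in HPC and 0 lower, and the medians were 5.65 in HB1 and 4.12 in HNG2. Cdx2, the homeobox gene that specifies intestine, was at 4.70 in HB1, 4.37 in HNG2 and -7.85 in NPC, at least 1117-fold higher in HPC (limma adjusted p = 0.0096). Villin (Vil1), of the brush border, was at 5.88 in HB1, 3.84 in HNG2 and -3.54 in NPC, a difference of 8.40 ± 0.95 (SE). The galectins Lgals2 and Lgals4 of the gut lining were at 7.38 in HB1, 6.80 in HNG2 and -2.75 in NPC and at 6.71 in HB1, 6.50 in HNG2 and -1.23 in NPC. NPC was below both hepatic lines at each. Gastrokine 2 (Gkn2), a stomach mucosa protein, was at least 28.5-fold higher. The tetraspanin Tspan8 was at 5.32 in HB1, 5.11 in HNG2 and -4.32 in NPC, a difference of 9.53 ± 0.26 (SE). Cdx1 and Pdx1, of intestine and of pancreas and duodenum, did not pass the filter, and Sox17, of gallbladder and endoderm, was at -4.88 in HB1, -5.42 in HNG2 and -5.39 in NPC. The trefoil factor Tff3 was high in HB1 alone, at 4.17 in HB1, -4.16 in HNG2 and -7.59 in NPC.

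**Figure D3:**
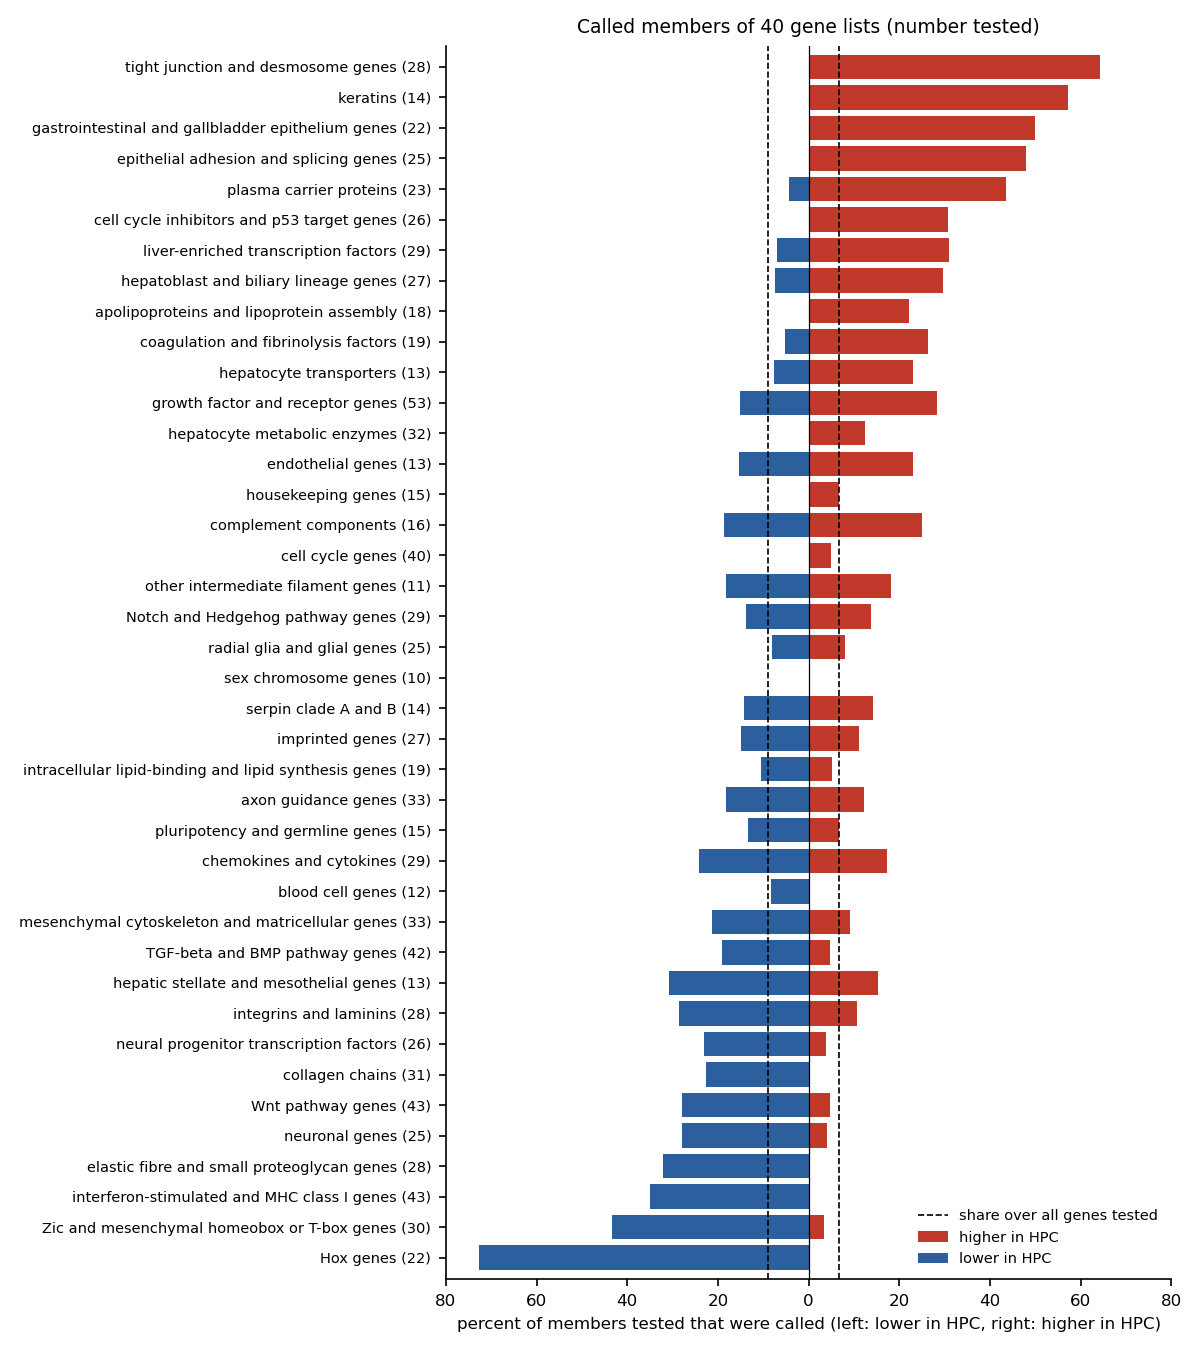
Percent of the tested members of 40 gene lists called lower (blue, left) and higher (red, right) in HPC, with the number tested in brackets. Dashed lines mark the shares over all genes tested, 6.68% higher and 8.98% lower; junction genes reach 64.3% higher and Hox genes 72.7% lower.

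Further genes were taken by the size of their difference, measured on all 3 arrays. Plac8 was at 6.94 in HB1, 6.35 in HNG2 and -4.12 in NPC, a difference of 10.76 ± 0.36 (SE) (limma adjusted p = 0.0096). Bicc1, an RNA-binding protein of kidney and bile duct cysts, was at 4.68 in HB1, 4.66 in HNG2 and -4.93 in NPC, a difference of 9.60 ± 0.23 (SE). Tm4sf4, a membrane protein of liver and gut, was at 6.77 in HB1, 5.26 in HNG2 and -3.37 in NPC. At Plac8 and Bicc1 the hepatic lines nearly coincided, while at Tm4sf4 HB1 was higher. The aldo-keto reductases Akr1c12 and Akr1c19 were 522-fold and 568-fold higher, though relatives in this family may share probe signal, which was not tested. Grb7, an adaptor of ErbB receptors, was at 4.70 in HB1, 3.43 in HNG2 and -4.52 in NPC, and mesothelin (Msln) at 6.71 in HB1, 6.72 in HNG2 and -1.22 in NPC. Among genes dim in NPC, the annexin Anxa13 was at least 2578-fold higher and the sphingomyelinase Smpd3 at least 497-fold.

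Of 26 neural progenitor transcription factors tested, 6 were lower and 1 higher, and 14 of the 40 on the array did not pass the filter. Sox2, which keeps neural progenitors undifferentiated, was at -8.07 in HB1, -8.60 in HNG2 and 0.86 in NPC, at least 144-fold lower in HPC (limma adjusted p = 0.011). Pax6, of the ventricular zone, was at -4.73 in HB1, -4.84 in HNG2 and -0.99 in NPC, a difference of -3.80 ± 0.25 (SE). Pax3, of the dorsal neural tube and neural crest, was at -3.95 in HB1, -5.32 in HNG2 and -0.80 in NPC, a difference of -3.84 ± 0.66 (SE). Both hepatic lines lay below NPC at all 3, and Sox2 was dim in both. Dmrta2, a forebrain regulator, was at -4.92 in HB1, -5.98 in HNG2 and -0.64 in NPC, and the oligodendrocyte factor Olig1 at -7.99 in HB1, -8.51 in HNG2 and -4.90 in NPC. En2 of the midbrain was the 1 member higher in HPC, at low levels of -3.94 in HB1, -3.77 in HNG2 and -6.17 in NPC. Sox1, the earliest neural tube marker, was at -4.06 in HB1, -6.09 in HNG2 and -4.34 in NPC, so NPC was not above HB1.

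Glial genes counted 2 lower and 2 higher of 25 tested (8% each), against 8.98% lower and 6.68% higher over all genes. Slc1a3 (GLAST), the radial glia glutamate transporter, was at -8.17 in HB1, -8.73 in HNG2 and 0.41 in NPC, at least 106-fold lower in HPC. Pdgfra, a receptor of oligodendrocyte precursors and of mesenchyme, was at least 66.4-fold lower. The myelin gene Mbp and metallothionein 3 (Mt3) were higher in HPC, by 3.85 ± 0.27 (SE) and 3.73 ± 0.45 (SE). Nestin (Nes) was at 0.28 in HB1, 1.52 in HNG2 and 1.18 in NPC, with NPC between the lines, and the receptor phosphatase Ptprz1 was at 8.69 in HB1, 8.46 in HNG2 and 9.11 in NPC. Of 25 neuronal genes tested, 7 were lower and 1 higher (Chga). When each probe had to be well above background on all arrays, 7 neuronal genes were tested and 0 were called. The splicing factor Rbfox1 was at least 40-fold lower, and the motor neuron factor Isl1 at least 22.6-fold, both dim in both hepatic lines. Neuronal tubulin Tubb3 was at -1.73 in HB1, -2.0 in HNG2 and -1.32 in NPC with no call, and Dcx of young neurons did not pass the filter.

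Axon guidance genes counted 6 lower (18.2%) and 4 higher (12.1%) of 33 tested, against 8.98% and 6.68% over all genes. Slit3, a secreted repellent, was at -8.12 in HB1, -8.64 in HNG2 and 2.88 in NPC, at least 583-fold lower in HPC. Slit2 was at -4.30 in HB1, -2.69 in HNG2 and 0.79 in NPC and its receptor Robo2 at -8.14 in HB1, -8.72 in HNG2 and -2.70 in NPC, both lower. Of 4 probes of Robo2 well above background on any of the 3 arrays, 3 had both lines below NPC. The ligand Efnb3 was lower by 4.22 on the log2 scale, while the receptor Epha4 was higher, at 2.19 in HB1, 2.80 in HNG2 and -5.09 in NPC. Semaphorin 3C (Sema3c), netrin 4 (Ntn4) and the semaphorin receptor Plxnb1 were also higher in HPC.

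Hox genes, which mark position along the body axis, were lower in HPC wherever they were called. Of 22 Hox genes tested, 16 were lower in HPC and 0 higher, with medians of -4.37 in HB1 and -4.91 in HNG2. At the other 6 there was no call, and 16 of the 38 on the array did not pass the filter. With dim values raised to the lowest signal well above background, the medians were -2.53 and -3.16. Hoxa7 was at -6.41 in HB1, -6.77 in HNG2 and 2.65 in NPC, at least 497-fold lower in HPC. Hoxa10 was at -8.02 in HB1, -8.54 in HNG2 and 1.85 in NPC and Hoxa11 at -8.04 in HB1, -8.57 in HNG2 and 2.71 in NPC, at least 286-fold and 520.3-fold lower. Hoxb7 was at -8.24 in HB1, -8.85 in HNG2 and 0.49 in NPC, at least 111-fold lower. Both hepatic lines were near the array floor at these genes, and NPC was well above background. The called genes were 9 of the A cluster, among them Hoxa7, Hoxa10 and Hoxa11, 4 of the B cluster (Hoxb2, Hoxb3, Hoxb7, Hoxb13) and 3 of the D cluster (Hoxd4, Hoxd8, Hoxd9). No gene of the C cluster was called, and Hoxc4 was at -1.99 in HB1, -3.25 in HNG2 and -1.53 in NPC. As 14 of the 16 were dim in both hepatic lines, a fold there is a bound. When each probe had to be well above background on all arrays, 3 Hox genes were tested and 0 were called.

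Zic1, of dorsal neural tube and somite, was at -8.01 in HB1, -8.51 in HNG2 and 3.70 in NPC, at least 1029-fold lower in HPC. In the list of Zic and mesenchymal homeobox and T-box genes, 13 of 30 tested were lower and 1 higher. Tbx18, of epicardium and limb mesenchyme, was at least 42-fold lower, and Alx1, of facial mesenchyme, at least 33-fold. Scleraxis (Scx), a tendon factor, was at -0.06 in HB1, 1.13 in HNG2 and 6.52 in NPC, a difference of -5.98 ± 0.69 (SE). Twist1, which drives mesenchymal fate, was at -8.26 in HB1, -5.41 in HNG2 and 1.42 in NPC, dim in HB1. Foxf2, of gut and lung mesenchyme, was the 1 member higher in HPC, at 1.66 in HB1, 2.16 in HNG2 and -2.43 in NPC. Prrx1, of limb mesenchyme, was at -5.18 in HB1, -2.36 in HNG2 and 2.84 in NPC, below NPC in both lines with no call (limma adjusted p = 0.053).

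Matrix genes that were called were lower in HPC, and the list medians lay further from NPC in HB1 than in HNG2. Of 31 collagen chains tested, 7 were lower and 0 higher, with medians of -5.27 in HB1 and -2.62 in HNG2. Of 28 elastic fibre and small proteoglycan genes, 9 were lower and 0 higher, with medians of -4.94 and -1.67. The type I collagen chain Col1a2 was at -3.34 in HB1, -1.18 in HNG2 and 6.53 in NPC, a difference of -8.79 ± 1.01 (SE) (limma adjusted p = 0.022). Its partner Col1a1 was at -5.23 in HB1, 0.02 in HNG2 and 4.98 in NPC, with the lines so far apart that it had no call (limma adjusted p = 0.12). Type III collagen (Col3a1) was at -7.37 in HB1, -3.58 in HNG2 and 5.67 in NPC, dim in HB1 (limma adjusted p = 0.037), and 2 of its 3 probes lay on one side of NPC in both lines. NPC was highest at all 3, and HNG2 was nearer to it than HB1. Col8a2 was at -8.00 in HB1, -7.49 in HNG2 and 2.72 in NPC, at least 521-fold lower in HPC. The basement membrane chains Col4a1 and Col4a2 had no call, with Col4a1 at 2.20 in HB1, 2.35 in HNG2 and 2.58 in NPC.

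Fibulin 5 (Fbln5), an elastic fibre assembly protein, was at -6.91 in HB1, -8.60 in HNG2 and 3.48 in NPC, at least 885-fold lower in HPC. Fibrillin 2 (Fbn2), of fetal microfibrils, was at least 486-fold lower. The microfibril protein Mfap2 was at -4.31 in HB1, -6.29 in HNG2 and 5.86 in NPC, called lower and dim in HNG2. Emilin2 was at -4.37 in HB1, -5.27 in HNG2 and 2.85 in NPC, measured on all 3 arrays. At Fbln5, Mfap2 and Emilin2 HNG2 was further from NPC than HB1. Fibulin 2 (Fbln2) went with NPC in one line alone, at -4.47 in HB1, 6.07 in HNG2 and 4.92 in NPC. Of 33 mesenchymal cytoskeleton and matricellular genes, 7 were lower (21.2%) and 3 higher (9.09%). Periostin (Postn) was at -8.25 in HB1, -7.90 in HNG2 and 1.16 in NPC, at least 176-fold lower in HPC, and the collagen receptor Ddr2 at least 607-fold lower. Thrombospondin 2 (Thbs2) was at -8.02 in HB1, -5.62 in HNG2 and 3.52 in NPC. Ccn2 (CTGF), a matricellular target of TGF-beta and YAP, went the other way at 4.74 in HB1, 6.51 in HNG2 and -1.35 in NPC, a difference of 6.97 ± 0.83 (SE). Smooth muscle actin (Acta2) was at 3.80 in HB1, 4.05 in HNG2 and 3.70 in NPC with no call.

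Integrins and laminins counted 8 lower and 3 higher of 28 tested. The integrin chain Itga8 was lower, at -8.04 in HB1, -6.61 in HNG2 and 1.85 in NPC, and Itga11 was at least 48.8-fold lower. Laminin alpha 2 (Lama2), of muscle and nerve, was at least 16.7-fold lower. The laminin chain Lamb3, of epithelial basement membrane, was higher in HPC, by 4.48 ± 0.55 (SE). The collagen receptor Itga2 was at least 5.99-fold higher. Of further genes with large measured drops, Tgfbi, a matrix protein induced by TGF-beta, was at -3.51 in HB1, -2.47 in HNG2 and 6.66 in NPC, a difference of -9.65 ± 0.54 (SE). The X-linked homeobox gene Rhox5 was at -2.51 in HB1, -2.91 in HNG2 and 7.12 in NPC, a difference of -9.83 ± 0.31 (SE). Clmp, a junction protein, was at -4.84 in HB1, -3.58 in HNG2 and 4.56 in NPC, and the lysosomal enzyme gene Hexa at -3.89 in HB1, -2.42 in HNG2 and 4.93 in NPC. The glycoprotein Gpnmb was at least 422-fold lower in HPC.

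**Figure D4:**
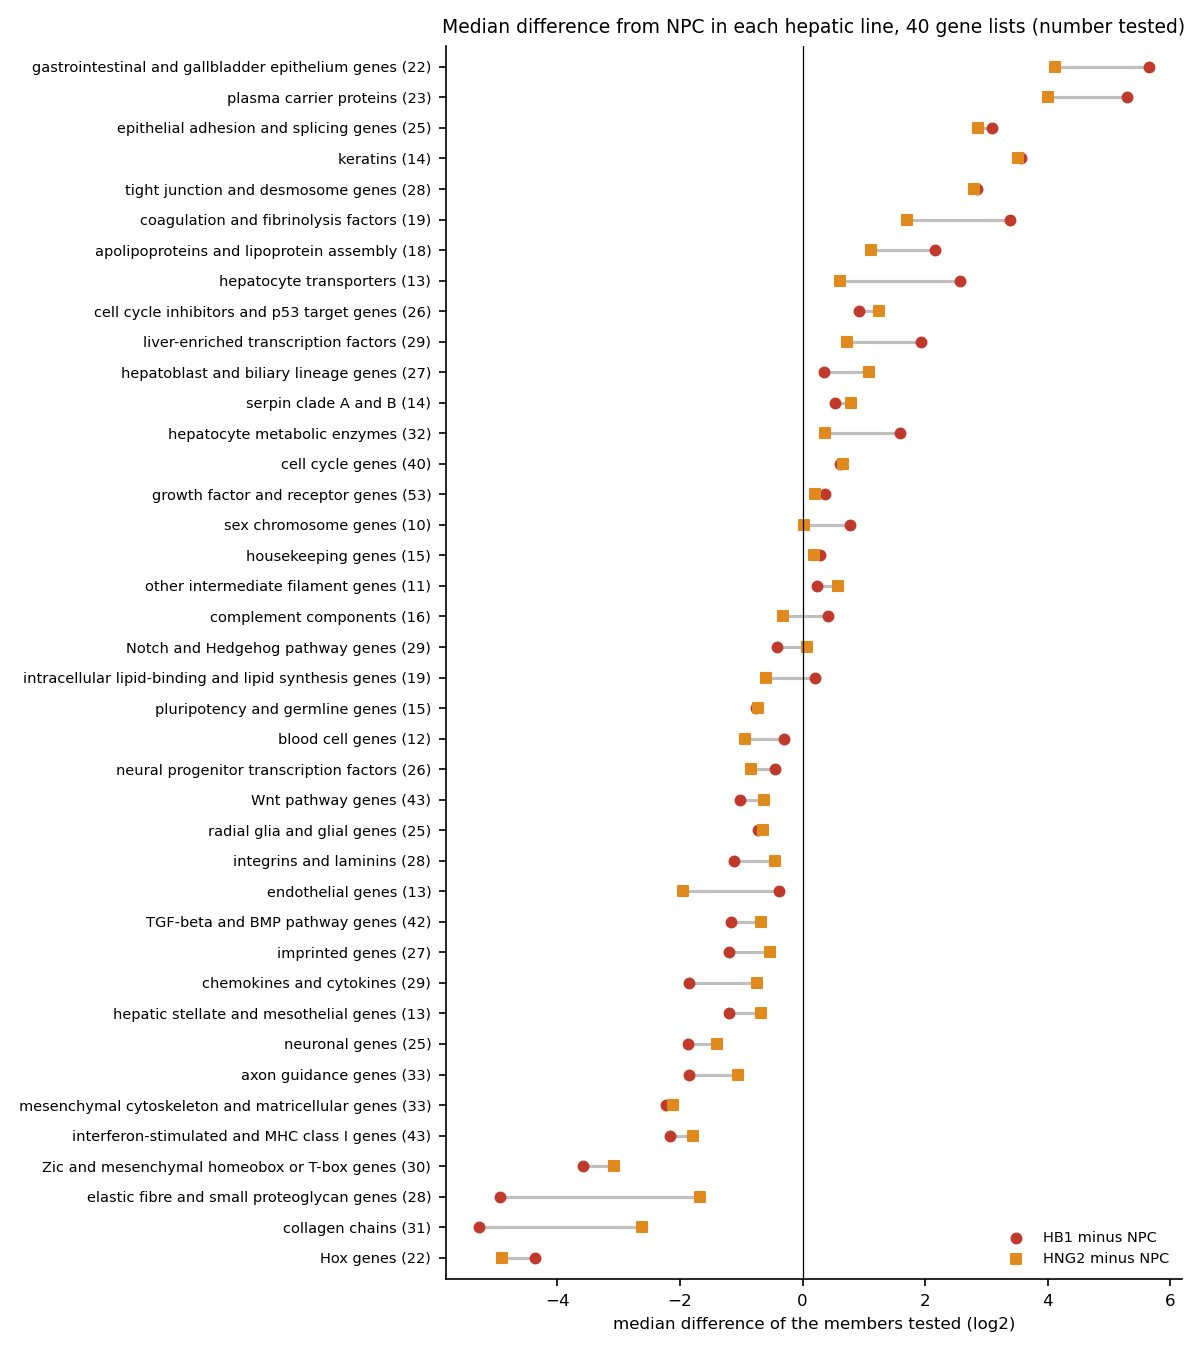
Median difference from NPC over the tested members of 40 gene lists (x axis, log2), for HB1 (circles) and HNG2 (squares), with the number tested in brackets. Keratin medians almost coincide (3.57 and 3.52), whereas those of collagens (-5.27 and -2.62) and elastic fibre genes (-4.94 and -1.67) lie further apart.

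Wnt pathway genes counted 12 lower and 2 higher of 43 tested. In this pathway Wnt ligands act through Frizzled receptors and Lef or Tcf factors, and secreted Dkk and Frzb proteins hold them back. Among ligands, Wnt10a was high in both hepatic lines and dim in NPC, at 3.56 in HB1, 5.20 in HNG2 and -6.71 in NPC, at least 1006-fold higher. Wnt5a, Wnt5b and Wnt16 were lower, with Wnt5b at -3.63 in HB1, -3.84 in HNG2 and -1.02 in NPC. Of receptors, Fzd10 was at least 3.84-fold higher. The ligand traps and inhibitors Frzb, Dkk1 and Dkk3 were lower, with Frzb at -5.83 in HB1, -5.39 in HNG2 and 1.88 in NPC, a difference of -7.48 ± 0.45 (SE). Lef1 was at -8.22 in HB1, -7.11 in HNG2 and 0.48 in NPC, at least 111-fold lower in HPC, and Tcf7 and Tcf7l1 were lower too. The feedback target Axin2 and the agonists Rspo1 and Rspo2 were dim in both hepatic lines and called lower.

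TGF-beta and BMP genes counted 8 lower (19.05%) and 2 higher (4.76%) of 42 tested, against 8.98% and 6.68% over all genes. The ligands Tgfb2 and Tgfb3 were lower, at -4.22 in HB1, -3.29 in HNG2 and 1.39 in NPC and -1.42 in HB1, 0.69 in HNG2 and 5.17 in NPC. The BMP receptor genes Bmpr1b and Bmpr2 and the pseudoreceptor Bambi were lower as well. The targets Id2 and Id3, inhibitors of helix-loop-helix factors, went opposite ways, with Id2 at 5.76 in HB1, 4.91 in HNG2 and 1.35 in NPC and Id3 at 2.48 in HB1, 2.78 in HNG2 and 5.12 in NPC. Gdf15, a stress-induced ligand, was higher, by 4.01 ± 0.40 (SE).

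Growth factor and receptor genes were called in both directions, with 15 higher and 8 lower of 53 tested. Of ligands of the EGF receptor, amphiregulin (Areg) was higher at 1.09 in HB1, 2.75 in HNG2 and -3.35 in NPC, Tgfa at -1.75 in HB1, -1.38 in HNG2 and -6.80 in NPC, and betacellulin (Btc) at least 23.1-fold higher. Their co-receptor Erbb3 was at 1.94 in HB1, 0.82 in HNG2 and -2.27 in NPC, a difference of 3.65 ± 0.59 (SE). The liver FGF receptor Fgfr4, which senses the gut hormone that limits bile acid synthesis, was at 2.30 in HB1, 2.10 in HNG2 and -4.57 in NPC, a difference of 6.77 ± 0.25 (SE). Both hepatic lines lay above NPC at Fgfr4 and at these ligands. Fgf13 was at -1.14 in HB1, 0.01 in HNG2 and -7.85 in NPC, at least 32.5-fold higher. Fgf10 was at least 28.3-fold lower in HPC, and Fgf7 was lower at -6.86 in HB1, -5.87 in HNG2 and -3.13 in NPC. Midkine (Mdk) and pleiotrophin (Ptn), related heparin-binding factors of the embryo, were lower, at -0.88 in HB1, -1.67 in HNG2 and 2.99 in NPC and -8.29 in HB1, -5.01 in HNG2 and 2.96 in NPC. The platelet-derived ligands Pdgfb and Pdgfd were higher, while the receptor Pdgfra was dim in HPC. Hepatocyte growth factor (Hgf) did not pass the filter, and its receptor Met was at -2.47 in HB1, -1.74 in HNG2 and -3.44 in NPC with no call.

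Notch and Hedgehog genes counted 4 higher and 4 lower of 29 tested (13.8% each), against 6.68% and 8.98% over all genes. The Notch ligand Jag2 was higher, at 0.78 in HB1, 0.50 in HNG2 and -4.60 in NPC, a difference of 5.24 ± 0.30 (SE), and Jag1, the ligand known from bile duct formation, was at 1.36 in HB1, 3.34 in HNG2 and 0.41 in NPC with no call. The Hedgehog ligands Dhh and Ihh were higher in HPC, with Dhh at 2.56 in HB1, 3.18 in HNG2 and -3.50 in NPC. The transcription factor Gli2 and the co-receptor Boc, which receive the signal, were at least 99.4-fold and 478-fold lower.

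Interferon-stimulated and MHC class I genes were called in one direction. Of 43 tested, 15 were lower in HPC and 0 higher, with medians of -2.16 in HB1 and -1.78 in HNG2. These genes are switched on by interferons through Stat2 and Irf9 and act against viruses or present antigen. Isg15, a ubiquitin-like modifier, was at -5.05 in HB1, -5.32 in HNG2 and 1.01 in NPC, a difference of -6.20 ± 0.26 (SE) (limma adjusted p = 0.0098). Ifit3, which binds viral RNA complexes, was at -5.49 in HB1, -4.76 in HNG2 and 0.83 in NPC, a difference of -5.96 ± 0.43 (SE). Ifi44 was at -7.97 in HB1, -8.46 in HNG2 and -0.21 in NPC, at least 68.7-fold lower in HPC. NPC was the highest array at all 3, and HB1 and HNG2 were close together. The GTPase Igtp was at -1.78 in HB1, -2.60 in HNG2 and 2.72 in NPC, and the peptide transporter chain Tap2 at -4.78 in HB1, -4.24 in HNG2 and -0.60 in NPC. Oas2 was called lower although it was not well above background on any of the 3 arrays. The class I heavy chain gene H2-K1 had no call, at 4.59 in HB1, 4.35 in HNG2 and 4.76 in NPC, while the light chain B2m was at 2.68 in HB1, 4.05 in HNG2 and 6.26 in NPC.

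Promoters of Ifit3 and Isg15 are shown because they hold the interferon-stimulated response element, the motif to which Stat2 and Irf9 bind (motif in capitals). They lie at chr19:34583279-34583578 (plus strand) and chr4:156200769-156201068 (minus strand).
Ifit3: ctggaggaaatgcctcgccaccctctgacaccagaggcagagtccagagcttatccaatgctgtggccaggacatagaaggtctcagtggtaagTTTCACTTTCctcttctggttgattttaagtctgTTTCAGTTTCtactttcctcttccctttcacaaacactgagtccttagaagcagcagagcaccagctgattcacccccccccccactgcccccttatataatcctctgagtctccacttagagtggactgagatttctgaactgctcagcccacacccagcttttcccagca
Isg15: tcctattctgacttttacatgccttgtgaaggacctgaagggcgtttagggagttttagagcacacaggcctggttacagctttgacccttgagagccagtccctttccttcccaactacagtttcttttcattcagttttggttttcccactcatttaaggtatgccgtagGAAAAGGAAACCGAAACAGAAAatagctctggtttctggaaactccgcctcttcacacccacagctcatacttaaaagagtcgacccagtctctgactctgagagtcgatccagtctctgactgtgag
The element occurred, on either strand, in 17 of 41 promoters of this list (41.5%), against 3.44% of all promoters, 4.62% of those of genes called lower and 2.93% of those of genes called higher.

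Chemokine and cytokine genes counted 5 higher (17.2%) and 7 lower (24.1%) of 29 tested, against 6.68% and 8.98% over all genes. Cxcl14 was at -7.80 in HB1, -8.88 in HNG2 and 1.37 in NPC, at least 204-fold lower in HPC, and the receptor Cxcr4 at least 18.2-fold lower. Il18 was at -4.42 in HB1, -4.24 in HNG2 and 1.77 in NPC, a difference of -6.10 ± 0.24 (SE), and the alarmin Il33 went the other way, at 0.98 in HB1, 1.78 in HNG2 and -1.57 in NPC. The hepatokine Fgl1 was higher, at 0.64 in HB1, 0.44 in HNG2 and -2.55 in NPC.

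Of 40 cell cycle genes tested, 2 were higher in HPC (Ccne2, Rrm2) and 0 lower, against 6.68% and 8.98% over all genes, with medians of 0.62 in HB1 and 0.66 in HNG2. Normexp background correction gave 13 higher, an intensity trend in eBayes 14, and the fits without HB1 and without HNG2 gave 20 and 18. The proliferation antigen Mki67 was at 5.24 in HB1, 5.14 in HNG2 and 4.51 in NPC, and the mitotic kinase gene Aurka at 4.69 in HB1, 4.75 in HNG2 and 4.77 in NPC. Of 26 cell cycle inhibitors and p53 targets tested, 8 were higher (30.8%) and 0 lower, against 6.68% and 8.98% over all genes. Without the test, 12 were at least 2-fold higher in both lines and 5 at least 2-fold lower. Normexp gave 10 higher and 4 lower, and quantile normalization 8 and 2. With only probes well above background on all arrays, 9 were higher and 2 lower of 22 tested. Cdkn1a (p21), the cyclin-dependent kinase inhibitor induced by p53, was at 2.77 in HB1, 3.63 in HNG2 and -0.89 in NPC, a difference of 4.09 ± 0.47 (SE). Ccng1 was at 4.06 in HB1, 4.63 in HNG2 and 1.15 in NPC, a difference of 3.19 ± 0.34 (SE). Mdm2, the ubiquitin ligase that p53 induces against itself, was at 2.56 in HB1, 3.06 in HNG2 and 0.79 in NPC, a difference of 2.02 ± 0.32 (SE). NPC was lowest at all 3. Zmat3, Bax, Sesn2, Tnfrsf10b and Rb1 made up the rest, with differences from 1.53 to 2.62. Trp53 itself was at 1.21 in HB1, 0.78 in HNG2 and 1.48 in NPC.

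Imprinted genes counted 3 higher (11.1%) and 4 lower (14.8%) of 27 tested, against 6.68% and 8.98% over all genes. Peg10 was at -8.06 in HB1, -8.60 in HNG2 and -2.48 in NPC, at least 14.3-fold lower in HPC. Phlda2 and Plagl1 were higher, at 2.41 in HB1, 1.51 in HNG2 and -1.39 in NPC and -2.45 in HB1, -1.50 in HNG2 and -5.69 in NPC. Of 2 probes of Plagl1 well above background on any of the 3 arrays, 1 had both lines above NPC. H19 was at 3.98 in HB1, -0.72 in HNG2 and -3.44 in NPC, highest in HB1, and Mest at -8.27 in HB1, -0.84 in HNG2 and 5.18 in NPC, dim in HB1. Of 15 pluripotency and germline genes tested, 1 was higher (Klf5) and 2 lower (Sox2, Rhox5), which is 6.67% and 13.3%. Nanog was at -8.13 in HB1, -8.67 in HNG2 and -3.79 in NPC and well above background in NPC alone, and Pou5f1 did not pass the filter.

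Of 15 housekeeping genes tested, Hprt was the 1 called. This purine salvage enzyme was at 6.69 in HB1, 5.79 in HNG2 and -1.33 in NPC, a difference of 7.57 ± 0.55 (SE). Other genes of that list had no call, with Rplp0 at 8.12 in HB1, 7.50 in HNG2 and 8.39 in NPC, Sdha at 2.01 in HB1, 2.11 in HNG2 and 1.97 in NPC and Tbp at -1.67 in HB1, -1.61 in HNG2 and -1.81 in NPC.

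At the 177 genes where the lines lay on opposite sides of NPC, HB1 was the higher line at 114 and HNG2 at 63. Adh1, the alcohol dehydrogenase of liver, was at 0.90 in HB1, -8.95 in HNG2 and -4.48 in NPC, dim in HNG2. Wfdc2, a protease inhibitor of airway and genital epithelium, was at -4.01 in HB1, 3.87 in HNG2 and -0.50 in NPC. Ifi202b, an interferon-inducible DNA sensor gene, was at -8.23 in HB1, 5.17 in HNG2 and 2.08 in NPC, dim in HB1. Mall was at -8.12 in HB1, -0.09 in HNG2 and -4.96 in NPC, and Ddit4l, an inhibitor of mTOR signalling, at -5.40 in HB1, 2.14 in HNG2 and -1.93 in NPC. At Adh1 HB1 was highest and at the other 4 HNG2 was. The other 5 of the 10 genes that disagreed most were D1Ertd471e, A630033E08Rik, Fam111a, LOC634881 and Dock10.

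Some further genes, chosen after their values were seen, were at background in 1 hepatic line. Cdkn2a was at -2.34 in HB1, -8.75 in HNG2 and 2.88 in NPC and its neighbour Cdkn2b at 0.78 in HB1, -8.65 in HNG2 and 5.22 in NPC, with HNG2 not well above background at either. The gene beside them, Mtap, was at -1.35 in HB1, 0.64 in HNG2 and 1.39 in NPC, well above background on all 3 arrays. The Y-linked Ddx3y was at 0.93 in HB1, -8.71 in HNG2 and -0.73 in NPC, dim in HNG2, while Eif2s3y, also Y-linked, was at 1.92 in HB1, 1.60 in HNG2 and 0.36 in NPC. The gap junction gene Gja1 was at -8.09 in HB1, 0.00 in HNG2 and 0.72 in NPC, dim in HB1. For Cdkn2a, Cdkn2b, Ddx3y and Gja1 the mean of the HPC pair describes neither line.

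**Figure D5:**
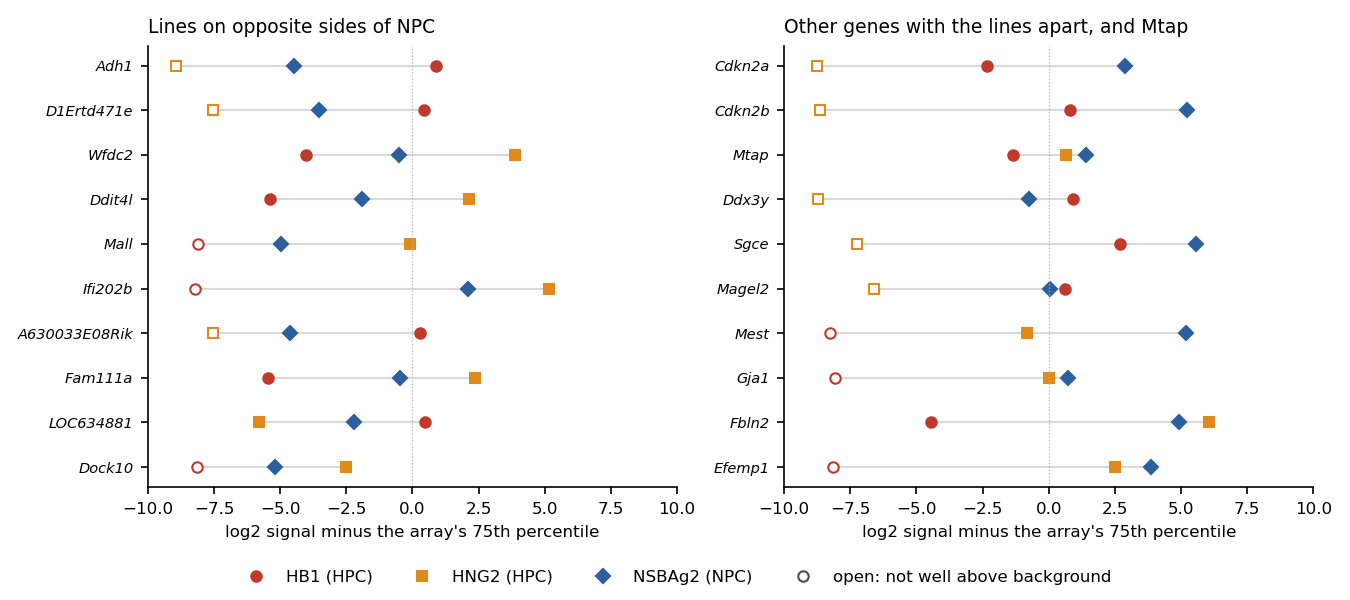
Level (log2 relative to the array's 75th percentile) in HB1 (circles), HNG2 (squares) and NSBAg2 (diamonds) of the 10 genes on which the hepatic lines disagree most about NPC (left) and of 10 genes shown for their spread (right); open symbols were not well above background. At Cdkn2a and Cdkn2b HNG2 lies at the left edge and Mtap does not.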

How the data were processed

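RNA (0.25 µg) was labelled with Cy3 and hybridised to one-colour Agilent arrays. Per the file headers, the deposited values are processed spot intensity values on a linear scale, from Agilent Feature Extraction 10.7.3.1, with its background correction. The authors' deposited value table held the same values at every spot compared.

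Control spots and outlier flags were left out, spots of a probe averaged, and log2 intensity taken minus each array's 75th percentile. A probe was tested if 1 or more of the groups had it well above background on each of its arrays, a gene being its probe with the highest mean. At 889 called genes, at least 2 probes were well above background on any of the 3 arrays compared. At 784 of these genes, all such probes had both lines on the called side of NPC. Of 41149 probes, 22940 were named by accession and 6658 by symbol through RefSeq (GRCm38.p6), and 11551 kept the file's name. limma 3.58.1 (R 4.3.3) fitted 3 groups over 5 arrays, with 2 residual degrees of freedom and Benjamini-Hochberg adjustment, after a test on simulated data. Alternatives changed the normalization, the background correction, the filter, the probe rule, the trend and the arrays.

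Named genes were, per direction, the 12 called with the largest measured difference and the 12 with the largest bound, up to 6 of each list, the marker genes and the 10 on which the lines disagree most. The other 32 called members were named after their values were seen. Some genes that the rule picks are not reported here. The members and lists were chosen with earlier results of these data known.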

Additional observations from a re-analysis of the deposited data

How the results depend on the processing

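No paired analysis was possible because the labels give no replicate numbers that HPC and NPC share, and NPC has 1 array. A fit with scan day as a random block was not run, because its correlation could not be estimated.

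Against 3024 calls (1290 higher, 1734 lower), normexp background correction gave 4747 (2930 lower), no filter on dim probes 1643 (587 higher, 1056 lower), and only probes well above background on all arrays 1199 higher and 1146 lower, so that 51.1% of calls were higher against 42.7%. An intensity trend in eBayes gave 2023 higher. The 3 arrays alone gave 0. Leaving out 1 array gave 0 to 9760 calls, with 0 to 4827 higher and 0 to 5190 lower. Genes at least 2-fold from NPC in both lines numbered 6082 (2709 higher, 3373 lower). They numbered 3646 (1837 lower) with only probes well above background on all arrays, and 2974 (1117 higher, 1857 lower) at 4-fold. With normexp, 1651 were higher. The cause was not tested.

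The median of all genes was -0.03, and moved to 0.26 with median centring, -0.19 with normexp and -0.31 without the filter. List medians changed sign for coagulation factors (-0.25, only probes well above background on all arrays) and serpins (-0.40, no filter). Of the called genes named, Chga and Esam changed sign, to -0.058 and -0.10 with normexp. Genes with no call that changed sign were all reported as values. With median centring these were Aurka (0.23), Cebpd (0.10), Fasn (0.031), Msi1 (0.14) and Nes (0.0036). With normexp they were Aurka (0.056), Cps1 (-0.27), Kdr (-0.39), Krt5 (-0.10) and Sox17 (-0.43). With quantile normalization they were Cebpa (-0.066), Orm2 (0.054), Sdha (-0.029) and Vim (-0.19). With the mean of a gene's probes they were Cebpa (-0.037), Fasn (0.0023) and Rplp0 (0.024). Without HB1 or without HNG2 the difference of a gene is that of the line kept, and its sign turned at genes where NPC lies between the lines. Over the fits that leave out 1 array the differences ranged for Cebpa from -0.14 to 0.18, for Ddx3y from -7.98 to 1.66, for Dlk1 from -1.80 to 1.03, for Fabp7 from -3.92 to 0.045, for Fbln2 from -9.39 to 1.15, for Hba-a1 from -1.13 to 0.0098, for Kdr from -0.72 to 1.84, for Krt5 from -0.31 to 1.53. They ranged for Magel2 from -6.64 to 0.57, for Msi1 from -0.51 to 0.22, for Nes from -0.90 to 0.34, for Sox1 from -1.75 to 0.28, for Sox17 from -0.028 to 0.51, for Tek from -2.40 to 0.29, for Vim from -0.0096 to 0.24.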

Other observations

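Genes of hepatic stellate cells and mesothelium, which lie beside hepatoblasts in the fetal liver, were called in both directions. Of 13 tested, 2 were higher in HPC (15.4%) and 4 lower (30.8%), against 6.68% and 8.98% over all genes. Mesothelin and podocalyxin (Podxl), which epithelial and mesothelial surfaces share, were the higher ones, and Podxl was at -1.53 in HB1, -1.07 in HNG2 and -4.81 in NPC, a difference of 3.51 ± 0.35 (SE). Cytoglobin (Cygb), a stellate cell marker, was lower in HPC at -5.96 in HB1, -5.89 in HNG2 and -1.76 in NPC, and the nerve growth factor receptor Ngfr at -3.92 in HB1, -3.56 in HNG2 and -1.25 in NPC. Among 13 endothelial genes tested, 3 were higher (Flt1, Esam, Stab1) and 2 lower (Erg, Sox7), which is 23.1% and 15.4%. Flt1, a receptor for vascular endothelial growth factors, was at 3.63 in HB1, 3.70 in HNG2 and -0.59 in NPC, a difference of 4.25 ± 0.33 (SE), and Erg, an endothelial transcription factor, was dim in both hepatic lines and at least 10-fold lower.

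Imprinted genes besides those above also separated HB1 from HNG2. Sgce, next to Peg10, was at 2.68 in HB1, -7.25 in HNG2 and 5.57 in NPC, dim in HNG2, and Magel2 was at 0.61 in HB1, -6.60 in HNG2 and 0.03 in NPC, likewise dim in HNG2. The elastic fibre gene Efemp1 was at -8.16 in HB1, 2.51 in HNG2 and 3.87 in NPC, dim in HB1. These genes were chosen after their values were seen, and no replicate of either line was among the arrays examined to give their spread.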
